A study of Mus musculus with 2 samples.

Results

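The chemokine and chemokine receptor genes were taken as every gene of the Visium gene list whose symbol starts with Ccl, Cxcl, Ccr or Cxcr followed by a digit. This gave 46 of 19465 measured genes. Their levels were described in 2 sections of mouse cerebellum, each carrying a breast tumor grown from transplanted HP organoids. HP organoids came from mammary tumors of mice with activating HER2 and PIK3CA alleles switched on by a Cre-expressing adenovirus in the mammary gland, and the hosts were adult, immunocompetent mice that received no treatment. The labels give 2 biological replicates and no tumor-free cerebellum. The sample titles name the organoids HP-F1 for section 1 and HP-B6 for section 2, while the cell line field reads B6-HP for both. Tumors were seeded by injection at the site studied and not by spread from the mammary gland.

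Chemokines are small secreted proteins that bind G protein-coupled receptors on leukocytes and other cells and direct their movement along a gradient. CC chemokines such as Ccl2 mainly draw monocytes, macrophages and T cells, while the CXC chemokines include neutrophil attractants such as Cxcl1 and interferon-induced T cell attractants such as Cxcl9. In brain, microglia, astrocytes and infiltrating macrophages are known sources.

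Regions were assigned to spots from marker genes that hold no chemokine gene: tumor spots were high for epithelial and matrix genes, neural spots were high for neuronal and glial genes, and Arg1-high edge spots were those at or above the 90th percentile of Arg1 level within 4 grid steps of the tumor border. Remaining spots were called mixed. Section 1 gave 670 tumor, 305 edge and 1765 neural spots, and section 2 gave 739, 360 and 1842. Adding up the unique molecular identifiers (UMIs) of all spots of a region, section by section, gave 8 libraries of 5233516 to 35785827 UMIs. Levels are given as CPM, UMIs of a gene relative to all UMIs of its library, after TMM scaling. A spot can hold several cells, so fewer cells of a type and less RNA per cell cannot be told apart. Each gene was captured with its own probes, so levels were compared between regions for a gene and not between genes.

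The tumors of the sections differed in their markers, given here as CPM before TMM scaling. The 7 epithelial markers summed to 45.2 CPM in tumor of section 1 and 10161 CPM in tumor of section 2, so the section 1 tumor did not carry the epithelial profile of a breast tumor and is called tumor here by its matrix genes. The 10 matrix markers summed to 64517 and 6312 CPM. The 7 T cell markers stood at 325 and 14.9 CPM and the 5 fibroblast markers at 4124 and 76.2 CPM. Neural markers summed to 25219.7 and 20541 CPM in neural tissue against 541 and 708 CPM in tumor. The 7 macrophage markers summed to 12768 and 14619.6 CPM at the edge, 5970.2 and 1659.5 CPM in tumor and 424 and 744 CPM in neural tissue. Of the edge sums, Spp1 gave 9282 and 11807 CPM and Cd68 gave 1472 and 762 CPM. No measured marker of these lists was at 0 in any library.

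Many of the genes lie in clusters. In the RefSeq annotation of GRCm38.p6, 11 Ccl genes lay on chromosome 11, 7 Cxcl genes on chromosome 5 and 8 Ccr genes on chromosome 9. RefSeq promoter sequences matched 32 of the 46 genes. Those of Cxcl1, Cxcl3 and Cxcl10 are shown because these 3 ligands were changed against neural tissue and hold the NF-kappaB motif searched here (GGGA, any base, TT, any base, CC), and that of Ccl6 because Ccl6 differed most between edge and tumor. Each is the 250 bases before the gene's start, read 5′ to 3′ on the gene's strand, with the NF-kappaB motif in capitals. They are chr5:90890995-90891244 (plus strand), chr5:90785851-90786100 (plus strand), chr5:92348890-92349139 (minus strand) and chr11:83593088-83593337 (minus strand).
Cxcl1: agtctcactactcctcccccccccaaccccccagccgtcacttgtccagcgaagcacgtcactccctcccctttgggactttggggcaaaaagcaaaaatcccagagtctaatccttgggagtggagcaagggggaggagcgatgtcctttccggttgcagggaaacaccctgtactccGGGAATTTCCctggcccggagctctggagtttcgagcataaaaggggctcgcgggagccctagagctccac
Cxcl3: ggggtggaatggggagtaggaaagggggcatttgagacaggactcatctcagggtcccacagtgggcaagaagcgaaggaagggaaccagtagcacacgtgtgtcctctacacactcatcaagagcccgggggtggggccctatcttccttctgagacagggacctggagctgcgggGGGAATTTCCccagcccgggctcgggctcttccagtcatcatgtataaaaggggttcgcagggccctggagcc
Cxcl10: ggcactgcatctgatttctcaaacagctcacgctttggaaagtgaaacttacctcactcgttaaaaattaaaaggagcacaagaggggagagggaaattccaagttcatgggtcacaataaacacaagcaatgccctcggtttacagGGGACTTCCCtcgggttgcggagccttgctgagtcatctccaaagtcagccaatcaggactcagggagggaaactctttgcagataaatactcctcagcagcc
Ccl6: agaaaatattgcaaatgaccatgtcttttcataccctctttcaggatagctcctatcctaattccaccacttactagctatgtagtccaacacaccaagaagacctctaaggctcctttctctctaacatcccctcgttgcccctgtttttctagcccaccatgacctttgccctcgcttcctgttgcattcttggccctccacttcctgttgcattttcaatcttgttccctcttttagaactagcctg
Searched on both strands over 250 bases, the motif was found in 5 of the 32 genes (Ccr3, Ccr6, Cxcl1, Cxcl3 and Cxcl10) and in 0.98% of all 32851 promoters. It began 71 bases before the start in Cxcl1, 73 in Cxcl3 and 103 in Cxcl10. The interferon-response motif (GAAA, any 2 bases, GAAA) was found in Cxcl10, where it began 213 bases before the start and did not overlap the NF-kappaB motif, and in Cxcl14, against 2.98% of all promoters. A gene was counted if any of its promoters held the motif, while each percentage is over single promoters. The counts of genes and the percentages are therefore unlike units. These letters are a description of the sequence, and the Ccl6 window held neither motif.

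Of the 45 chemokine genes that passed the filter on low counts, 15 were higher in tumor than in neural tissue and 1 was lower, while the others did not pass, where changed means an adjusted p below 0.05 and a log2 difference beyond 1. Over all 19117 genes tested, 30% were changed, 14.6% higher and 15.4% lower. The 45 genes had a median log2 difference of 1.68, against -0.07 over all genes. Without regard to the test, 24 of them were higher in tumor in both sections, 9 were lower in both and 12 ran opposite ways. The matching shares over all genes were not computed, so these directions are a description only. Some rest on very small differences, such as 0.008 for Ccl22 and 0.05 for Ccl12 in section 2. At the Arg1-high edge, 16 genes were higher than in neural tissue and 0 were lower, against 11.3% and 11.8% of all genes (23.1% together), with a median of 1.91 against -0.03. Edge against tumor gave 3 higher genes, Ccl2, Ccl3 and Ccl6, and 0 lower, against 3.3% and 0.0628% of all genes (3.36% together). At an unadjusted p below 0.05, 23, 20 and 10 of the 45 genes passed in the 3 comparisons, which share libraries. By the same limit 8887, 7347 and 2559 of all 19117 genes passed, so the member counts alone are no result about the family. When 1 score threshold in place of 2 split tumor from neural spots, so that most mixed spots joined neural tissue, 8, 10 and 0 of the 45 members were changed. With that threshold 4982, 3099 and 0 of 19226 genes were changed, so in tumor the members were not called more often than all genes. Among the calls lost there were those of Ccl2, Ccl4, Ccl7, Ccr2, Cxcl1, Cxcl3 and Cxcr2 in tumor and of Ccl11, Ccr2, Cxcl3, Cxcl5 and Cxcl10 at the edge, against neural tissue. In total 18 of the 45 genes were changed in at least 1 comparison, 13 of 28 ligands and 5 of 17 receptors tested. Of these, 14 were changed in both comparisons with neural tissue. The matching shares over all genes were not computed for these joint counts, so they are a description only.

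**Figure D1:**
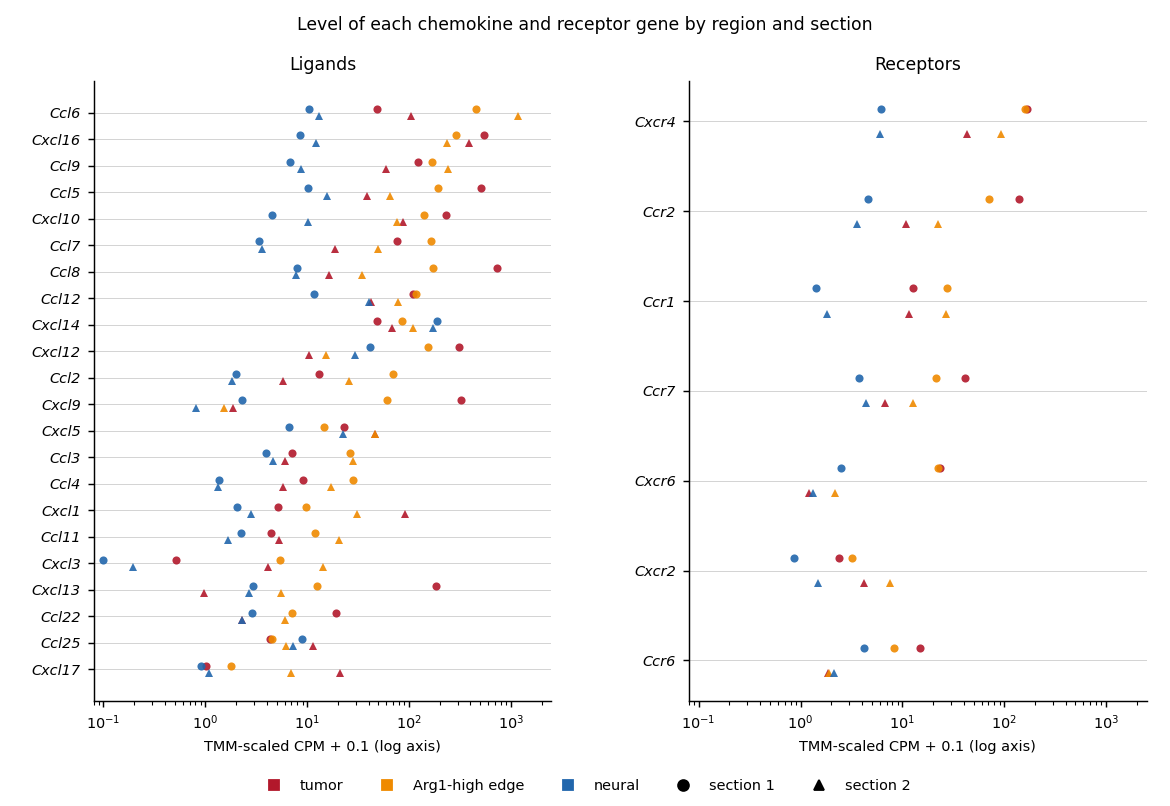
Level of ligands and receptors that were changed or reached 10 CPM (horizontal log axis, TMM-scaled CPM plus 0.1) in tumor (red), Arg1-high edge (orange) and neural tissue (blue) of section 1 (circles) and section 2 (triangles). Most orange and red points lie to the right of the blue points of the same section, while Cxcl14 runs the other way.

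Ccl6, a macrophage chemokine that binds Ccr1, was the gene most unequal between edge and tumor. It stood at 48.6 CPM in tumor, 457 CPM at the edge and 10.2 CPM in neural tissue of section 1, and 105, 1181 and 13.1 CPM in the same regions of section 2. Each section had its highest level at the edge, and the regions did not overlap. The edge exceeded tumor by a log2 difference of 3.38 ± 0.33 (SE), adjusted p = 0.01, n = 2 sections, and neural tissue by 5.999 ± 0.37 (SE), adjusted p = 0.0014. Each SE given here was derived from the test statistic of the fit and is not a spread measured over the sections. Tumor also exceeded neural tissue, by 2.62 ± 0.32 (SE), adjusted p = 0.0017. Ccl9, a related Ccr1 ligand, stood at 123 CPM in tumor, 166 CPM at the edge and 6.72 CPM in neural tissue of section 1, and 59.2, 240.4 and 8.69 CPM in the same regions of section 2. It was higher at the edge (4.71 ± 0.54 (SE), adjusted p = 0.0032) and in tumor (3.60 ± 0.52 (SE), adjusted p = 0.0041) than in neural tissue, but edge against tumor did not pass (1.11 ± 0.48 (SE), adjusted p = 0.41).

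Ccl3 and Ccl4, ligands that activated macrophages and microglia make, were highest at the edge of each section as well. Ccl3 stood at 6.99 CPM in tumor, 25.99 CPM at the edge and 3.83 CPM in neural tissue of section 1, and 5.99, 28.2 and 4.51 CPM in the same regions of section 2. It was higher at the edge than in tumor (2.05 ± 0.27 (SE), adjusted p = 0.016) and than in neural tissue (2.70 ± 0.28 (SE), adjusted p = 0.002), while tumor against neural tissue did not pass (0.65 ± 0.27 (SE), adjusted p = 0.11). Ccl4 stood at 8.99 CPM in tumor, 28.3 CPM at the edge and 1.26 CPM in neural tissue of section 1, and 5.65, 17.01 and 1.23 CPM in the same regions of section 2. Its edge level exceeded neural tissue (4.13 ± 0.36 (SE), adjusted p = 0.0015), as did its tumor level (2.51 ± 0.34 (SE), adjusted p = 0.0026), and edge against tumor lay just outside the limit (1.63 ± 0.32 (SE), adjusted p = 0.058). The annotated intervals of Ccl3 and Ccl4 overlap, and each was captured with its own probes.

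Ccl2 and Ccl7, which draw monocytes through Ccr2, were also highest at the edge of each section. Ccl2 stood at 12.9 CPM in tumor, 69.9 CPM at the edge and 1.88 CPM in neural tissue of section 1, and 5.65, 25.8 and 1.71 CPM in the same regions of section 2. The edge exceeded tumor (2.33 ± 0.38 (SE), adjusted p = 0.032) and neural tissue (4.56 ± 0.43 (SE), adjusted p = 0.0016), and tumor exceeded neural tissue (2.23 ± 0.40 (SE), adjusted p = 0.0072). Ccl7 stood at 75.8 CPM in tumor, 166 CPM at the edge and 3.27 CPM in neural tissue of section 1, and 18.6, 49.4 and 3.46 CPM in the same regions of section 2, with the edge (4.75 ± 0.78 (SE), adjusted p = 0.0096) and tumor (3.53 ± 0.75 (SE), adjusted p = 0.016) above neural tissue. Ccl12, another Ccr2 ligand, stood at 109.6 CPM in tumor, 118 CPM at the edge and 11.6 CPM in neural tissue of section 1, and 41.9, 77.1 and 40.5 CPM in the same regions of section 2 and passed neither comparison with neural tissue (adjusted p = 0.15 for the edge and 0.19 for tumor). Its highest level in section 2 was 156 CPM in the mixed spots.

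The edge against tumor calls rest on the mixed libraries, which raise the residual degrees of freedom from 2 to 3 and also enter the filter, the scaling and the dispersion. Without those 2 libraries 0 of 19147 genes were changed in that comparison by edgeR, with 2174 at an unadjusted p below 0.05. The adjusted p was then 0.0994 for Ccl2, 0.0725 for Ccl3 and 0.0577 for Ccl6, with log2 differences of 2.32, 2.06 and 3.37. Without the section block Ccl2 did not pass either (adjusted p = 0.0907). Of the 7 macrophage markers, Cd68, Msr1, Gpnmb and Spp1 were higher at the edge than in tumor in both sections, and Adgre1, Mrc1 and Cd163 were so in section 2 and lower at the edge in section 1. Mrc1 stood at 22.8 CPM at the edge and 149 CPM in tumor of section 1. Cd163 was lower at the edge than in neural tissue in both sections, at 1.72 against 5.07 CPM and 3.81 against 4.59 CPM. Higher at the edge than in tumor in both sections were also all 14 neural, 5 astrocyte, 5 oligodendrocyte, 4 monocyte and 5 endothelial markers. So were 6 of 7 neutrophil and all 4 erythrocyte markers, against 0 of 7 epithelial, 0 of 7 T cell and 0 of 4 NK cell markers. Every T cell and NK cell marker was lower at the edge than in tumor in section 1 and higher in section 2. Of the edge spots, 171 of 305 in section 1 and 175 of 360 in section 2 lay outside the tumor border. The part of these markers in the result was not tested.

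**Figure D2:**
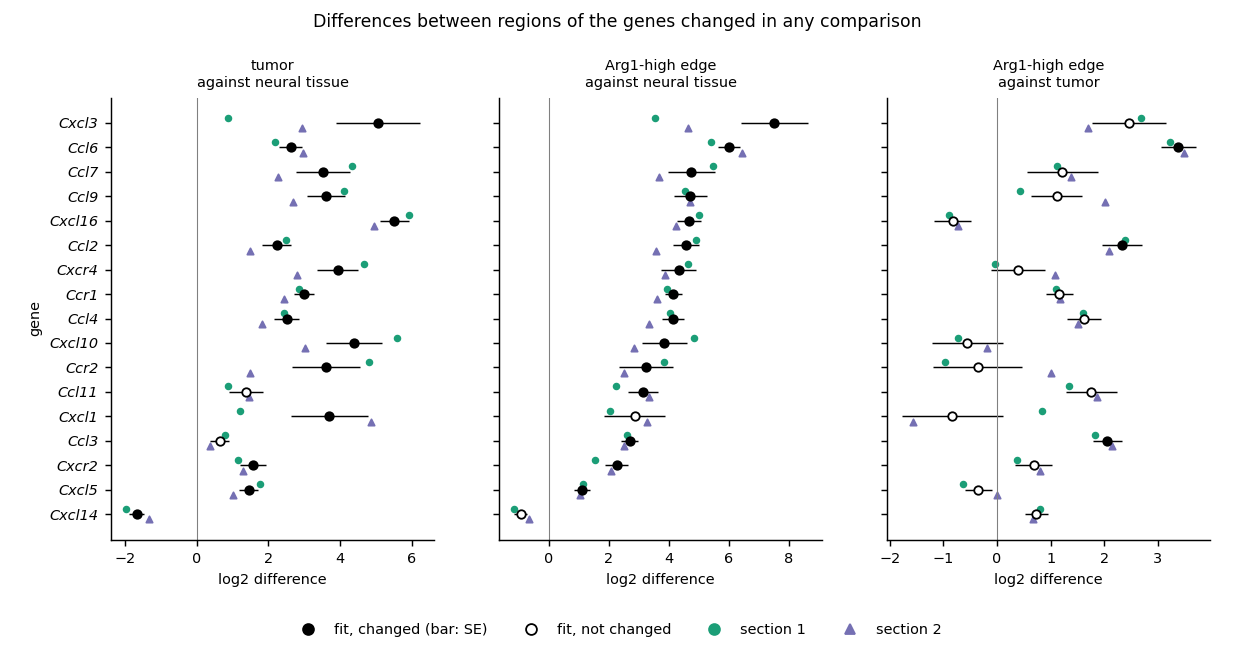
Log2 difference between regions (horizontal axis) for 17 of the 18 genes changed in any comparison. Black points are fitted values with standard errors derived from the F statistic of the fit, filled where changed. Green circles and violet triangles are the values within section 1 and section 2. Ccl6, Ccl3 and Ccl2 are filled in the edge against tumor panel, and Cxcl14 lies left of 0 in the first panel.

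Ccr1 and Ccr2, receptors of these ligands, were higher in tumor and at the edge than in neural tissue. Ccr1, carried by monocytes, macrophages and neutrophils, stood at 12.7 CPM in tumor, 27.5 CPM at the edge and 1.32 CPM in neural tissue of section 1, and 11.4, 26.4 and 1.71 CPM in the same regions of section 2. It was higher at the edge (4.14 ± 0.29 (SE), adjusted p = 0.0014) and in tumor (2.98 ± 0.28 (SE), adjusted p = 7.0e-04) than in neural tissue. Ccr2, the monocyte receptor, stood at 139 CPM in tumor, 70.6 CPM at the edge and 4.52 CPM in neural tissue of section 1, and 10.7, 22.04 and 3.46 CPM in the same regions of section 2. Its edge level was near the limit (3.24 ± 0.91 (SE), adjusted p = 0.049) and its tumor level passed (3.60 ± 0.95 (SE), adjusted p = 0.032). Without the mixed libraries the adjusted p of Ccr2 was 0.0698 at the edge and 0.0532 in tumor, and without the section block it was 0.0971 at the edge. No receptor was changed between edge and tumor. Ccr1 was higher at the edge there without passing (1.16 ± 0.25 (SE), adjusted p = 0.085). It passed with DESeq2 in place of edgeR (adjusted p = 0.0023) and with an Arg1 threshold at the 95th percentile (0.038).

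The interferon-induced ligands were unequal between the tumors. Cxcl10 stood at 232 CPM in tumor, 139.8 CPM at the edge and 4.397 CPM in neural tissue of section 1, and 86.6, 76.04 and 10.2 CPM in the same regions of section 2, and was higher in tumor (4.40 ± 0.78 (SE), adjusted p = 0.0086) and at the edge (3.84 ± 0.76 (SE), adjusted p = 0.017) than in neural tissue. Cxcl9, which binds the same receptor, stood at 325 CPM in tumor, 60.03 CPM at the edge and 2.198 CPM in neural tissue of section 1, and 1.78, 1.42 and 0.712 CPM in the same regions of section 2. It was high in section 1 alone and did not pass (5.03 ± 1.68 (SE), adjusted p = 0.067 in tumor against neural tissue). With DESeq2 in place of edgeR, Cxcl9 passed in that comparison (adjusted p = 1.7e-04). Cxcr3, their receptor on activated T cells, stood at 7.44 CPM in tumor, 3.25 CPM at the edge and 0.879 CPM in neural tissue of section 1, and 0.303, 0.773 and 0.475 CPM in the same regions of section 2 and did not pass.

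Cxcl16, a ligand that exists as a membrane-bound and a shed form, was the member with the smallest adjusted p in tumor. It stood at 542 CPM in tumor, 289 CPM at the edge and 8.48 CPM in neural tissue of section 1, and 388, 235 and 12.1 CPM in the same regions of section 2. Tumor exceeded neural tissue by 5.51 ± 0.42 (SE), adjusted p = 3.5e-04 and the edge did so by 4.68 ± 0.40 (SE), adjusted p = 0.0015. Both sections had more in tumor than at the edge, a difference that did not pass (-0.83 ± 0.34 (SE), adjusted p = 0.38). Cxcr6, its receptor on T cells, stood at 23.5 CPM in tumor, 22.2 CPM at the edge and 2.39 CPM in neural tissue of section 1, and 1.099, 2.06 and 1.23 CPM in the same regions of section 2, so that ligand was high in both tumors and the receptor reached 10 CPM in section 1 alone.

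Cxcl12, which stromal cells make and which holds cells through Cxcr4, stood at 308 CPM in tumor, 153 CPM at the edge and 41.6 CPM in neural tissue of section 1, and 10.3, 15.1 and 29.4 CPM in the same regions of section 2. The sections ran opposite ways between tumor and neural tissue, and the fit did not pass (1.04 ± 1.30 (SE), adjusted p = 0.56). Cxcr4 stood at 166 CPM in tumor, 161 CPM at the edge and 6.03 CPM in neural tissue of section 1, and 43.5, 92.3 and 5.89 CPM in the same regions of section 2, and was higher at the edge (4.32 ± 0.57 (SE), adjusted p = 0.0048) and in tumor (3.93 ± 0.57 (SE), adjusted p = 0.0042) than in neural tissue. The receptor was above neural tissue in both tumors, while its ligand was above it in section 1 alone.

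Cxcl1, Cxcl3 and Cxcl5, which attract neutrophils, were higher in tumor than in neural tissue. Cxcl1 stood at 5.13 CPM in tumor, 9.62 CPM at the edge and 1.95 CPM in neural tissue of section 1, and 91.6, 30.7 and 2.71 CPM in the same regions of section 2. It was higher in tumor than in neural tissue (3.70 ± 1.08 (SE), adjusted p = 0.044), chiefly through section 2, and the call was lost without the mixed libraries (adjusted p = 0.0705), without the section block (0.0589) and with scaling by library size alone (0.0599). Cxcl5 stood at 23.1 CPM in tumor, 14.7 CPM at the edge and 6.47 CPM in neural tissue of section 1, and 46.3, 46.1 and 22.4 CPM in the same regions of section 2, with 1.45 ± 0.26 (SE), adjusted p = 0.007 in tumor and 1.10 ± 0.26 (SE), adjusted p = 0.024 at the edge against neural tissue. Without the section block its adjusted p was 0.342 and 0.490, and without the mixed libraries it was 0.0605 at the edge. With scaling by library size alone the edge difference was 0.93, inside the fold limit. Cxcl3 stood at 0.411 CPM in tumor, 5.33 CPM at the edge and 0 CPM in neural tissue of section 1, and 4.06, 14.2 and 0.0949 CPM in the same regions of section 2. It had 151 UMIs at the edge and 2 in neural tissue over both sections, a ratio of CPM of 161 (95% exact interval 43.8 to 1340.5, counting error only), and tumor, with 120 UMIs, had a ratio of 31.7 (8.59 to 265). The fit called both (adjusted p = 0.0063 and 0.02), and its fold depends on the prior count. Cxcr2, the receptor of all 3, stood at 2.31 CPM in tumor, 3.12 CPM at the edge and 0.754 CPM in neural tissue of section 1, and 4.09, 7.48 and 1.38 CPM in the same regions of section 2, and was called at the edge (2.27 ± 0.38 (SE), adjusted p = 0.0084) and in tumor (1.58 ± 0.37 (SE), adjusted p = 0.019). The tumor call was lost without the section block (adjusted p = 0.0736) and with scaling by library size alone (0.0651). The 7 neutrophil markers summed to 22.2 and 42.3 CPM in tumor, 82.3 and 89.3 CPM at the edge and 11.6 and 15.1 CPM in neural tissue. Most of each edge sum came from S100a8, S100a9 and Mmp8, which were above neural tissue in tumor and at the edge of both sections. Ly6g, Retnlg, Ngp and Camp, of which the first is a defining neutrophil surface marker, stayed under 2 CPM in these regions, and Ly6g was 1.84 and 1.31 CPM at the edge against 1.69 and 1.32 CPM in neural tissue. In tumor these 4 of the 7 markers were lower than in neural tissue in both sections, while the other 3 were higher. The part of these markers in the result was not tested.

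Cxcl14, a chemokine of epithelia and neurons whose receptor is not settled, was the only member called lower in tumor than in neural tissue. It stood at 48.2 CPM in tumor, 84.5 CPM at the edge and 189.9 CPM in neural tissue of section 1, and 68.6, 109 and 174 CPM in the same regions of section 2. Tumor was below neural tissue by a log2 difference of -1.67 ± 0.22 (SE), adjusted p = 0.0023, with the edge between (-0.93 ± 0.21 (SE), adjusted p = 0.024, inside the fold limit). Tumor spots held more UMIs than neural spots, with medians of 56145.5 and 41923 against 7490 and 9558, and in mean raw UMIs per spot the tumor difference turned to 0.35.

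**Figure D3:**
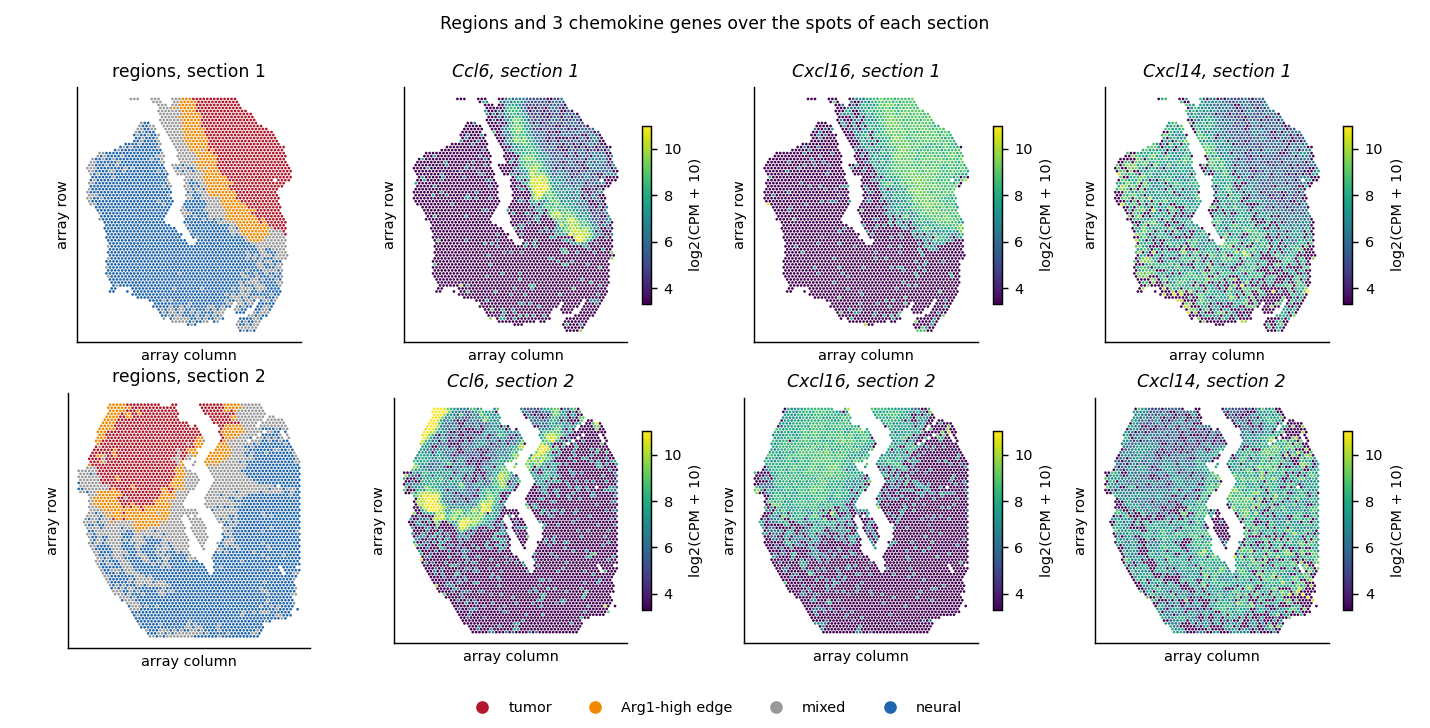
Spots of section 1 (top) and section 2 (bottom) by array column and row, colored by region in the first column and by log2(CPM + 10) of Ccl6, Cxcl16 and Cxcl14 in the others. Ccl6 is brightest along the orange edge spots, Cxcl16 across the red tumor spots and Cxcl14 over the blue neural spots.

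Ccl11, an eosinophil attractant, stood at 4.34 CPM in tumor, 11.8 CPM at the edge and 2.14 CPM in neural tissue of section 1, and 5.23, 20.5 and 1.57 CPM in the same regions of section 2 and was higher at the edge than in neural tissue (3.14 ± 0.51 (SE), adjusted p = 0.0072). Its receptor Ccr3 stood at 2.82 CPM in tumor, 3.25 CPM at the edge and 1.76 CPM in neural tissue of section 1, and 0.947, 1.55 and 1.42 CPM in the same regions of section 2. Ccr7, which guides dendritic cells and T cells to lymph nodes, stood at 41.4 CPM in tumor, 21.3 CPM at the edge and 3.64 CPM in neural tissue of section 1, and 6.71, 12.6 and 4.27 CPM in the same regions of section 2 and did not pass (adjusted p = 0.092 at the edge and 0.058 in tumor against neural tissue). With DESeq2 in place of edgeR it passed in both (adjusted p = 0.0095 and 0.0016), and without the section block it passed in tumor (0.0499).

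Several genes reached their highest region level in the tumor of 1 section, and with 1 library each these values carry no test. Ccl8, a monocyte attractant, stood at 726 CPM in tumor, 172 CPM at the edge and 7.85 CPM in neural tissue of section 1, and 16.2, 34.5 and 7.69 CPM in the same regions of section 2. Ccl5, made by T cells, stood at 513 CPM in tumor, 191 CPM at the edge and 10.05 CPM in neural tissue of section 1, and 38.6, 65.2 and 15.5 CPM in the same regions of section 2. Cxcl13, a B cell attractant, stood at 184 CPM in tumor, 12.3 CPM at the edge and 2.83 CPM in neural tissue of section 1, and 0.872, 5.41 and 2.61 CPM in the same regions of section 2. In section 2 each was highest in the mixed spots, with Ccl8 at 41.7 CPM, Ccl5 at 119 CPM and Cxcl13 at 21.5 CPM. All 3 were higher in tumor of section 1, and none passed in tumor against neural tissue (adjusted p = 0.079, 0.067 and 0.18). With DESeq2 in place of edgeR all 3 passed there (adjusted p = 1.1e-04, 1.7e-04 and 0.033). Of the receptors, Ccr8, which binds Ccl8, ranged from 0.902 to 6.74 CPM and Cxcr5, which binds Cxcl13, from 1.48 to 7.53 CPM over the 8 libraries. Ccl22 reached 18.9 CPM and Ccr6 14.97 CPM in tumor of section 1, against 2.198 and 1.78 CPM in section 2. Cxcl17 and Ccl25 ran the other way, with 0.918 and 4.18 CPM in tumor of section 1 against 21.1 and 11.3 CPM in section 2. The T cell and fibroblast marker sums were also higher in tumor of section 1 and the epithelial sum in section 2, and their part was not tested.

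**Figure D4:**
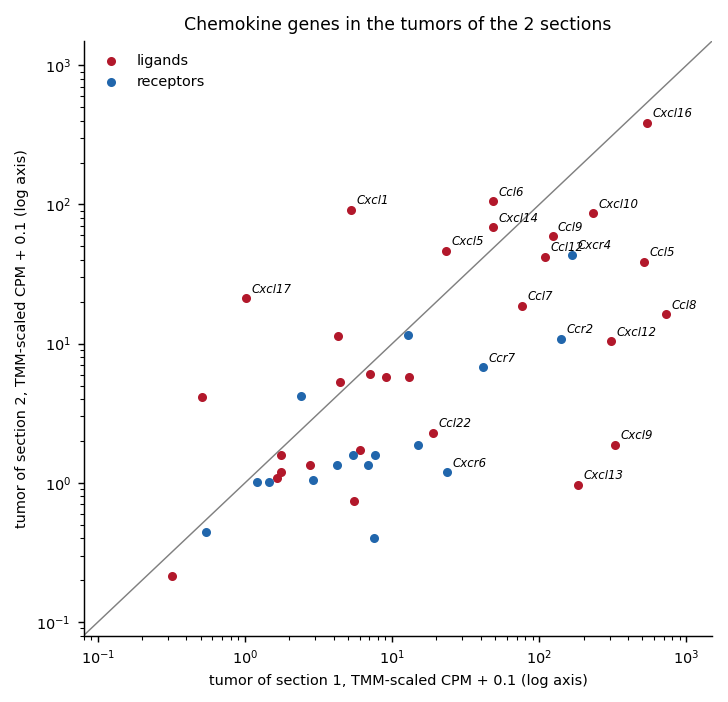
Level of the chemokine and receptor genes described here in tumor of section 1 (horizontal log axis) and section 2 (vertical log axis), in TMM-scaled CPM plus 0.1, with the line of equal level. Cxcl9, Cxcl13, Ccl8 and Cxcl12 lie far below the line and Cxcl1 and Cxcl17 far above it, while Cxcl16 is close to it.

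The remaining 16 genes stayed under 10 CPM in every library, from 0 to 9.28 CPM. They were the ligands Ccl1, Ccl17, Ccl20, Ccl24, Ccl26, Ccl28 and Cxcl15 and the receptors Ccr1l1, Ccr3, Ccr4, Ccr8, Ccr9, Ccr10, Cxcr1, Cxcr3 and Cxcr5. None was changed in any of the 3 comparisons. Cxcl15 did not pass the filter and is given no fold.

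Levels were also described by distance from the tumor border, without a test. Counted in grid steps, Ccl6, Ccl3, Ccl4 and Ccl11 were highest 1 to 2 steps outside the border in both sections, as Arg1 was. Ccl6 reached 582 CPM there in section 1 and 786 CPM in section 2, before TMM scaling. Ccl2, Ccl7, Ccl9 and Ccr1 were highest 1 to 2 steps inside the tumor in section 1 and 1 to 2 steps outside it in section 2. Several of these levels in section 1 were close on both sides of the border. At 1 to 2 steps outside and inside, Arg1 stood at 946 and 920 CPM, Ccl2 at 58.7 and 63.4 CPM and Ccl9 at 146 and 157 CPM. No spread is given for these values, so the side of the highest level is not a result for such genes. Cxcl16 was highest 7 to 8 steps inside in section 1 (548 CPM) and 5 to 6 steps inside in section 2 (364 CPM), and Cxcl14 was highest outside, at 7 to 8 and 13 to 14 steps.

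**Figure D5:**
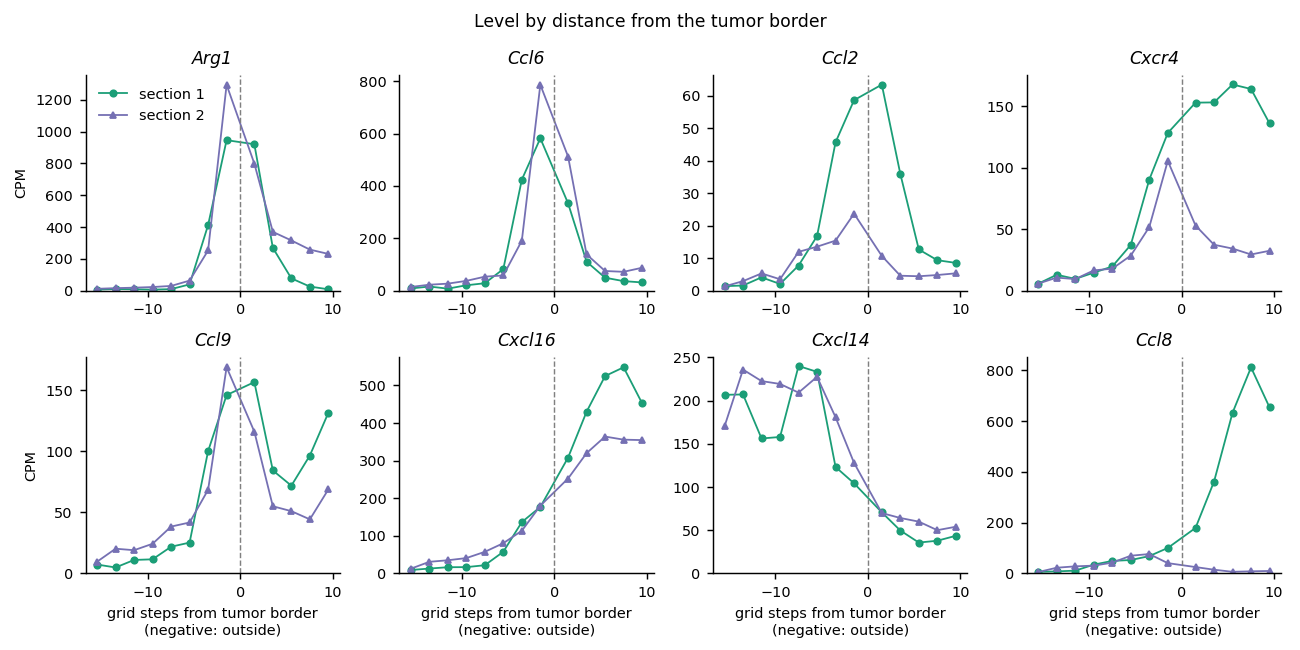
CPM (vertical axis) by grid steps from the tumor border (horizontal axis, negative outside, the last point on each side holding all farther spots) for Arg1 and 7 chemokine genes in section 1 (green circles) and section 2 (violet triangles). Ccl6 and Arg1 are highest 1 to 2 steps outside in both sections, with Arg1 in section 1 close to its level 1 to 2 steps inside. Cxcl16 rises into the tumor and Ccl8 does so in section 1 alone.

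Across the spots of a region, ligand and receptor were weakly related. Over 56 values of Spearman's rho from listed pairs, sections and the tumor and edge regions, the median was 0.06, the lowest -0.04 and the highest 0.28, for Cxcl16 with Cxcr6 over 305 edge spots of section 1. Cxcr6 had a UMI in 35.1% of those spots, and a rho of this size is no finding. Low values were not confined to sparse genes. Cxcl12 and Cxcr4 had UMIs in 98.4% and 97.9% of tumor spots of section 1, with a rho of -0.01. Ccl6 with Arg1, which are no ligand and receptor pair, had a rho of 0.47 over 305 edge spots of section 1 and 0.69 over 360 of section 2, and Ccl6 with the macrophage marker sum had 0.54 and 0.73. Over the 670 and 739 tumor spots these were 0.32 and 0.28 with Arg1 and 0.28 and 0.51 with the macrophage sum. Ccl6 does not stand for the other members here. Over the tumor spots of section 1, the rho with the macrophage sum was 0.38 for Cxcl12, -0.41 for Ccl8 and -0.36 for Cxcl10. The rho of Ccl6 with the UMI total of the spot was -0.56 and -0.14 at the edge and 0.07 and -0.12 in tumor. Spots of 1 section share a library and their depth, and Arg1 was used to choose the edge spots.

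Of 20 measured genes of the wider chemokine system, which holds scavenger receptors, platelet chemokines and signaling parts, 5 were higher in tumor than in neural tissue and 1 was lower, against 14.6% and 15.4% of all genes, and 7 were higher at the edge and 0 lower, against 11.3% and 11.8%. Pf4, a chemokine of platelets and some macrophages, stood at 47.9 CPM in tumor, 171 CPM at the edge and 5.97 CPM in neural tissue of section 1, and 58.2, 230.3 and 6.12 CPM in the same regions of section 2, and was the only one changed between edge and tumor (1.91 ± 0.18 (SE), adjusted p = 0.01). Arrb2, which desensitizes receptors, Gnai2, the G protein subunit they signal through, Dock2, a leukocyte motility factor, and Rgs1, which limits G protein signaling, were higher in both comparisons, with log2 differences at the edge of 1.64 ± 0.37, 1.64 ± 0.30, 2.77 ± 0.74 and 4.34 ± 0.40 (SE). Ccrl2 and Pik3r5 were higher at the edge alone among the calls (1.38 ± 0.27 and 3.13 ± 0.84), and whether that differs from tumor was not shown. Ackr1, a scavenger receptor of chemokines, was lower in tumor (-2.96 ± 0.55 (SE), adjusted p = 0.01).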

How the data were processed

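Visium CytAssist libraries of formalin-fixed sections, 1 per mouse tumor (n = 2), were deposited by the authors as raw UMI counts per gene and spot. Per the labels, reads were processed with Space Ranger 2.1.1 against mm10; the kit's probe set limits the genes measured. Spots with at least 500 UMIs and 10 genes were kept (3315 of 3406 and 3999 of 4017), from libraries of 63986887 and 71878333 UMIs. The 3096 barcodes that the sections share are array positions. No doublet caller was run, since a spot is a small region of tissue.

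The region score was log2 of epithelial plus matrix CPM over neural CPM, each plus 10, split by 3-class Otsu thresholds per section. Tumor was the top class in blocks of at least 50 spots, neural the lowest class. Edge spots had at least 3 Arg1 UMIs. Regions came from these deposited counts and not from the authors' annotation, which was not used here.

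Summed counts were fitted with edgeR 4.0.16 (R 4.3.3; TMM, filterByExpr, robust glmQLFit, glmQLFTest) with section as a block, 8 libraries and 3 residual degrees of freedom, and Benjamini-Hochberg adjustment over 19117 genes. The block was kept because regions of 1 section come from 1 mouse. Changed meant adjusted p below 0.05 and a log2 fold change beyond 1. Each SE was derived as the absolute log2 difference divided by the square root of the F statistic of glmQLFTest. With n = 2 sections and the block, the p-values rest on how far the region differences varied between these sections. That spread was pooled over all regions, mixed included, and moderated across genes. DESeq2 1.42.0 was an alternative. Values within a section added 0.5 CPM. Genes are named if changed, if at least 10 CPM in a region, or if paired with such a gene; the rest are listed. The counts hold 1 member that is not reported here, nor drawn or entered in the rho values. The members and lists were chosen with earlier results of these data known. Sequences and locations are from RefSeq, GRCm38.p6, the same assembly as mm10.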

Additional observations from a re-analysis of the deposited data

How the results depend on the processing

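Counts of changed members stayed within 1.5 times of the reported count under most alternatives. The exceptions were the following. With 2-class Otsu thresholds, 8 members changed in tumor against neural tissue, 10 at the edge against neural tissue (3 of the wider list) and 0 members, 0 wider genes and 0 of all genes at the edge against tumor, where 2515 genes had an unadjusted p below 0.05. Leaving out the mixed libraries, an alternative chosen after seeing the data, also gave 0 members, 0 wider genes and 0 of all genes at the edge against tumor. DESeq2 gave 1109 genes and 7 members there, and an Arg1 threshold at the 95th percentile gave 5 members. Over all comparisons DESeq2 gained 17 calls of members and lost 0, with 24 members changed in tumor against neural tissue. Of all 19226 genes tested with the 2-class thresholds, 4982 were changed in tumor and 3099 at the edge against neural tissue. DESeq2 changed 6527 of 17510 genes in tumor against neural tissue, where 43 members were tested. The Arg1 threshold at the 95th percentile changed 733 of 19179 genes at the edge against tumor. The causes were not tested. The 6-library fits have 2 residual degrees of freedom, but their filter, scaling and dispersion estimates changed as well. The 2-class thresholds also moved spots between regions, so these parts cannot be told apart. Of 35 calls of members, 17 were kept under every alternative that was fitted with a test. Cxcl14 in tumor against neural tissue is among these, although it reversed in mean raw UMIs per spot, which carry no test.

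With 1 section left out there are no residual degrees of freedom, so genes beyond a log2 difference of 1 were counted with no test. Tumor against neural tissue gave 22 to 30 members and 9 to 13 wider genes, where all 19117 genes gave 6733 to 7227. Edge against neural tissue gave 24 to 28 members and 10 to 12 wider genes, with 5756 to 5855 of all genes. Edge against tumor gave 17 to 18 members and 5 wider genes, with 1725 to 2768 of all genes. Without the replicate block, 15, 14 and 2 members changed (13, 14 and 2 of them also changed with it), and the common dispersion was 0.147 against 0.0874 with the block. Of all 19117 genes, 5158, 3833 and 567 changed without the block. Scaling by library size alone moved the median of all genes to -0.34 and the split for tumor against neural tissue to 2044 higher and 3607 lower, from 2792 and 2950. In mean raw UMIs per spot, Cxcl14 in tumor against neural tissue reversed to 0.354. Ligands and receptors at a few CPM rest on few UMIs, and differences between them may not be detectable at this depth.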
